A study of Mus musculus with 2 samples.

Results

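The genes of the ligand-gated ion channel receptors were examined for H3K4me3, the trimethylation of lysine 4 on histone H3, which in most cells sits around promoters in use or ready for use. A symbol rule took the mouse protein-coding genes for subunits of nicotinic acetylcholine, GABA-A and GABA-rho, glycine, ionotropic glutamate, 5-HT3 serotonin and P2X receptors, which gave 68 of 21887 protein-coding genes. Of these, 67 encode channel subunits, and Grid2ip, which the rule takes by its symbol, encodes a scaffold protein of glutamate synapses. The mark was profiled by chromatin immunoprecipitation and sequencing in 1 library of sorted NOS1+ neurons of mouse small intestine. A single input library (n = 1) of unselected chromatin accompanied it, and no file of it was used here. NOS1 is the neuronal nitric oxide synthase, and the cells that carry it in the gut wall are the nitrergic neurons, which relax smooth muscle. Both libraries carry the same label for cells and tissue, and ThruPLEX is named as their library kit. Strain, genotype, age, the number of animals and the way in which NOS1+ cells were marked for sorting are not stated in these sources. There was no replicate, so no difference below has a replicate check and none was tested. Values are those of the authors' deposited peak list, which gives each peak a position and a score of unstated scale.

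Ligand-gated channels carry fast synaptic transmission. The nicotinic, 5-HT3, GABA and glycine receptors are rings of related subunits (the Cys-loop family), ionotropic glutamate receptors are tetramers and P2X receptors, opened by ATP, are trimers. Within each family the subunit genes decide which channel a cell can build, and many of them lie side by side in the genome. Between enteric neurons, fast excitation runs mainly through nicotinic receptors, with P2X and 5-HT3 receptors beside them. H3K4me3 at a start marks a promoter that is open to transcription and does not measure RNA or channel protein. In a bulk library a mark present in few cells and a weak mark present in all cells cannot be told apart.

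A gene was counted as marked when a peak overlapped its model, widened by 1 kb to each side, by 1 bp or more. The list held 29924 peaks, of 690 bp in the median, and its scores reached 703 with a median of 35.7. Sequencing depth is unknown, so a missing peak means that none was called and does not show that the mark was absent. Of the 10 markers of enteric neurons 10 had a peak over the model, Nos1 only inside it. Markers of other cells of the gut wall were marked as well: 5 of 5 glial genes, 5 of 5 smooth muscle genes, 5 of 5 interstitial cell and fibroblast genes, 4 of 5 epithelial genes, 3 of 4 endothelial genes and 2 of 5 leukocyte genes. Vil1, Cdh5, Adgre1, Cd3e and Itgam had no peak. Since 67% of all protein-coding genes had a peak over the model, counts over so few markers do not show which cells were present. The highest score at an end of a model reached 105 among the neuronal markers, 102 among the glial, 73.5 among the interstitial, 32.6 among the smooth muscle, 32.9 among the epithelial, 91.5 among the endothelial and 165 among the leukocyte markers, the last at Cd79a. Whether a marker's peak, such as that of Cd79a, also lies at an end of another gene was not examined. The part of these cells in the peaks of the receptor genes was not tested.

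The share of receptor genes with a peak was near that of all genes before gene length was taken into account, and below it at matched length. Over the full list their peaks were narrower and lower-scored. A peak lay over 45 of the 68 genes (66.2%, exact 95% interval 53.7 to 77.2%), against 67% of all protein-coding genes. At an end of the model, within 1 kb of it, 39 of 68 had a peak (57.4%), against 61.4% of all genes. The widest peak per marked gene had a median of 980 bp, against 1515 bp over all marked genes, and the highest score a median of 41.9 against 153. Widths above 2 kb were found at 6 of the 45 (13.3%), against 26.1% of all marked genes, and widths under 500 bp at 8 of the 45 (17.8%), against 6.88%. Among the 50% of peaks with the highest scores 25 of the 68 genes kept a peak, where 57.8% of all genes did. In that set the order of the widths turned, with medians of 1724 bp for receptor genes and 1623 bp for all genes, while the scores stayed lower (68.4 against 165). Among the 25% with the highest scores, which began at 141, 3 of the 68 did, namely P2rx3, P2rx4 and Grin2d, where 37.3% of all genes did.

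Receptor genes are long, and long models are more often marked. The median model was 39936 bp, against 17169 bp for all protein-coding genes. In the longest of 5 classes of equal size (models of at least 57148 bp) 23 of 29 receptor genes had a peak, against 89.2% of all genes there. In the next class 8 of 15 had one, against 79.3%. Weighted to the lengths of the receptor genes, the share of all genes with a peak was 79.5% over the model and 71.1% at an end. Both lie above the exact intervals of the receptor genes, which end at 77.2% over the model and at 69.3% at an end.

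**Figure D1:**
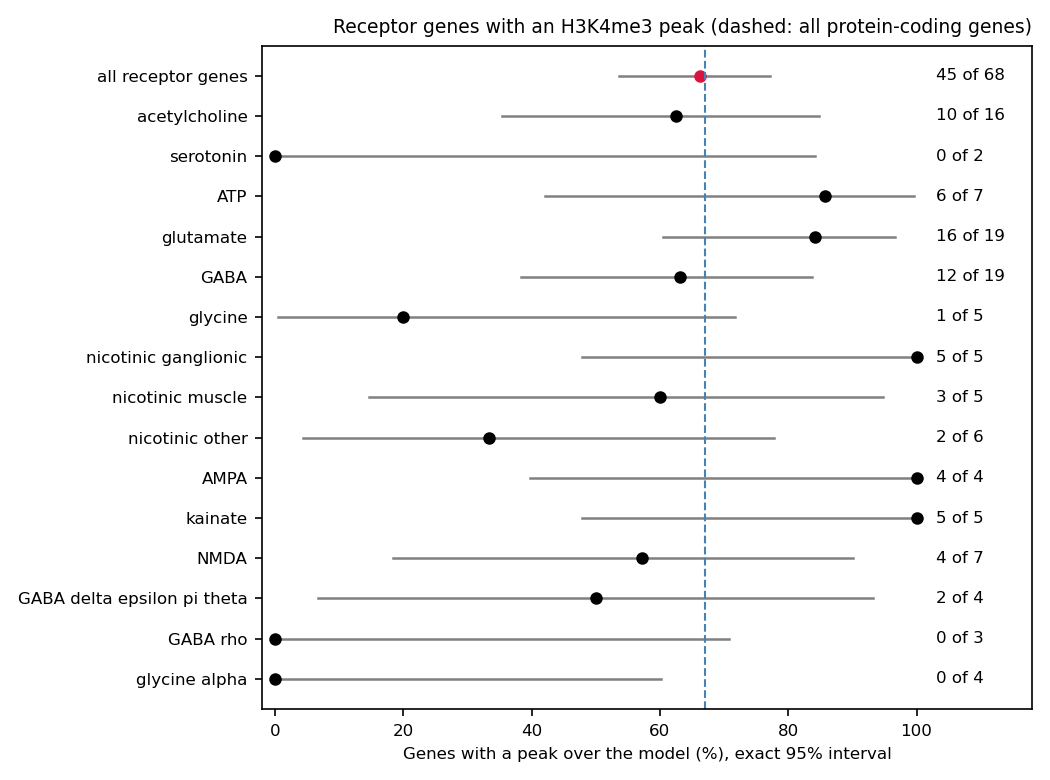
Percentage of genes with an H3K4me3 peak over the model for all receptor genes, for each transmitter and for several subunit classes (points), with exact 95% intervals over genes (lines) and counts at the right. The dashed line marks the 67% of all protein-coding genes, not weighted for gene length. The kainate, AMPA and ganglionic nicotinic classes stand at 100% and the serotonin, GABA rho and glycine alpha classes at 0%, all with wide intervals.

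**Figure D2:**
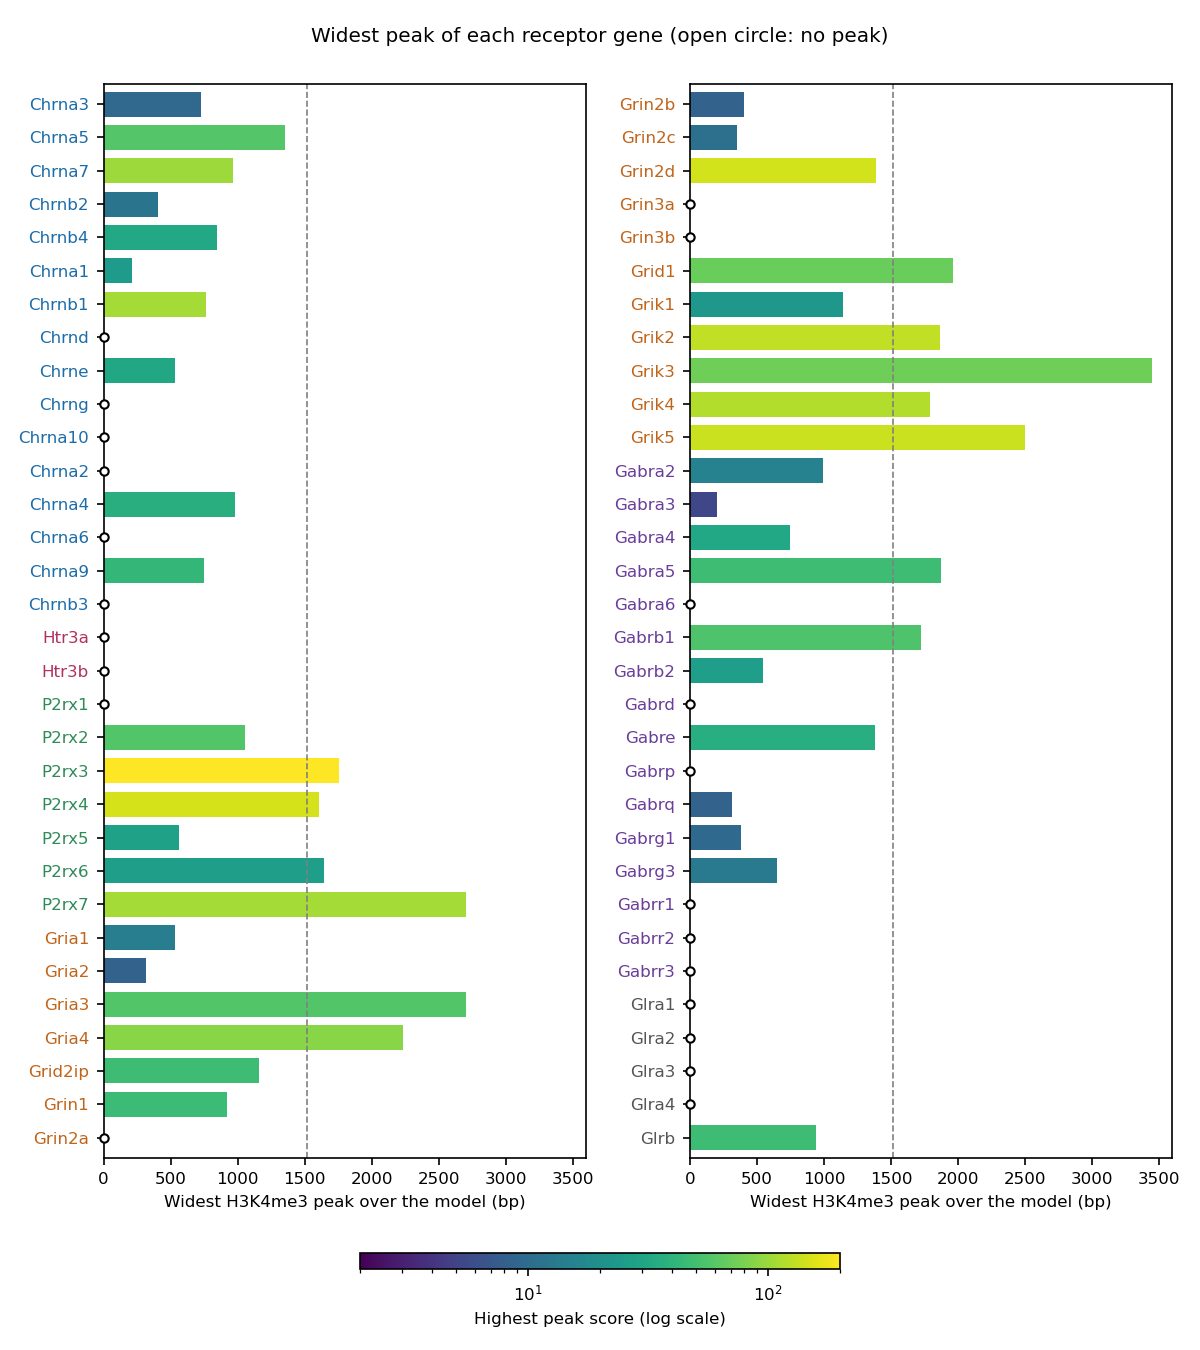
Width in bp of the widest peak over each of 64 of the 68 receptor genes (bars), coloured by the highest score on a log scale, with open circles for the 22 of them without a peak and the dashed line at the median of all marked genes, 1515 bp. Gene names are coloured by transmitter; the longest bar is Grik3 at 3451 bp, and glutamate and P2X genes hold most bars beyond the dashed line.

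Whether a start was marked followed the number of CG dinucleotides in its promoter. CG-rich promoters carry H3K4me3 in most tissues, so this feature was read from the RefSeq promoter windows (GRCm38.p6, the coordinates of mm10), which reach from 250 bases before to 50 bases after a start. Windows were found for 47 of the 68 receptor genes, 54 windows in all since some genes have several starts. The bases before the start are shown for 5 genes with a peak and for Htr3b and Gabra6, which had none, 5′ to 3′ on the gene's strand with each CG in capitals.
Grik3, chr4:125490446-125490695, plus strand: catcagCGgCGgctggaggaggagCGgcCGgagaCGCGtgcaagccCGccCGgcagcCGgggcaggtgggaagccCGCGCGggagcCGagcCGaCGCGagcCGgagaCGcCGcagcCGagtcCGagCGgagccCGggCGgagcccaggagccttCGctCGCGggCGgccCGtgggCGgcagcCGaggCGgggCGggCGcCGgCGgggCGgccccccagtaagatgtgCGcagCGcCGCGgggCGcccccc
Chrna7, chr7:63212527-63212776, minus strand: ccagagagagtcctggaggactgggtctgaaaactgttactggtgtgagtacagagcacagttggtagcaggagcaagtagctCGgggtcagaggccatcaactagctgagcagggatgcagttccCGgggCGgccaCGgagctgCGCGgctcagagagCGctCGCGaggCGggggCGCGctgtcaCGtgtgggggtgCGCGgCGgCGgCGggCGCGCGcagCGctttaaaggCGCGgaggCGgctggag
Glrb, chr3:80913661-80913910, minus strand: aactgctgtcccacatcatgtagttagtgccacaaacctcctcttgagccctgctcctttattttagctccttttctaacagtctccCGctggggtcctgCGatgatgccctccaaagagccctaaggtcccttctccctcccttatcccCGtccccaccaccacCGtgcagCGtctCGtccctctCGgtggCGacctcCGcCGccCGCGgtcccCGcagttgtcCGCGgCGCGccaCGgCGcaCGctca
Grin1, chr2:25319188-25319437, minus strand: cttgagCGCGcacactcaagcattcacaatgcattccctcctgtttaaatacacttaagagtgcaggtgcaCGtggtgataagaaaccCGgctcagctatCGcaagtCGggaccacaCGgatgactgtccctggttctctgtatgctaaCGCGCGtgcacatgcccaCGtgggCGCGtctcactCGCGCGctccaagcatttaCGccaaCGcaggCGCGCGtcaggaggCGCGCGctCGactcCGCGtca
Chrna3, chr9:55026563-55026812, minus strand: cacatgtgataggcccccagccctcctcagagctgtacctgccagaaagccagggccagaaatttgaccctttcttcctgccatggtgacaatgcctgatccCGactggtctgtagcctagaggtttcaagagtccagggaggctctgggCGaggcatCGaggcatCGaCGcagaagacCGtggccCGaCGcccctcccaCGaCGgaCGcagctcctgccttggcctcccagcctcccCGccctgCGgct
Htr3b, chr9:48964991-48965240, minus strand: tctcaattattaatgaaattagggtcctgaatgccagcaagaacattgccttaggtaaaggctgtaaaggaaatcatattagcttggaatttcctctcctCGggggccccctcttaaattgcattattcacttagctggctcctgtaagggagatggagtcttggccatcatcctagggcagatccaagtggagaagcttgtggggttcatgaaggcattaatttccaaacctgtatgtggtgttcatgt
Gabra6, chr11:42321073-42321322, minus strand: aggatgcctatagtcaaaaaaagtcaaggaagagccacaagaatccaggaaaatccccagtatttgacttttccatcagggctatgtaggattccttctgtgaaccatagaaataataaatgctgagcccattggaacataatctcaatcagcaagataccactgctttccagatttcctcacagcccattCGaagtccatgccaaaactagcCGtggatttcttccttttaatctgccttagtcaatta

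The Grik3 stretch held 42 CG in 250 bases, that of Grin1 27, Chrna7 25, Glrb 20 and Chrna3 13. The stretch of Gabra6 held 2 and that of Htr3b 1. Peaks at these starts were 3451 bp wide at Grik3, 964 bp at Chrna7, 938 bp at Glrb, 723 bp at Chrna3 and 412 bp at Grin1. The order of the widths therefore did not follow the order of the counts, Grin1 having the narrowest peak of the 5 with the second largest count.

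Across the 54 windows of 300 bases, 14 of the 14 with at least 20 CG had a peak within 1 kb of the start, and 13 of the 14 with 10 to 19 CG, the exception being Gabra5. Among all protein-coding genes the shares were 97.5% and 87.9%. Of the 13 windows with 4 to 9 CG 5 were marked, against 38.3% of all such windows, and of the 13 with at most 3 CG 4 were marked, against 7.65%. These 4 were the outer and inner starts of Gabra3, which share 1 peak, and those of Gabrg1 and P2rx6. In all 30 of the 47 genes had a peak at a start (63.8%, exact interval 48.5 to 77.3%), where the share among all genes with a window was 63%. Windows of 1 gene can overlap or share a peak, so they are not independent.

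Marked CG-rich receptor promoters had low scores for their class. In windows with at least 20 CG the median score was 36.2 for receptor genes and 170 for all genes, with 0 of 14 at or above that median and a highest value of 130, at Grik2. The lowest 4 were Gria2 (8.23), Gabrq (8.38), Grin2c (9.06) and Grin1 (10.3), with 26, 23, 22 and 33 CG. With 10 to 19 CG the median was 31.5 against 144, and P2rx4 (148) and Grin2d (147) were the 2 of 13 at or above the median of all genes. Median widths in the class with at least 20 CG were 972 bp and 1671 bp.

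**Figure D3:**
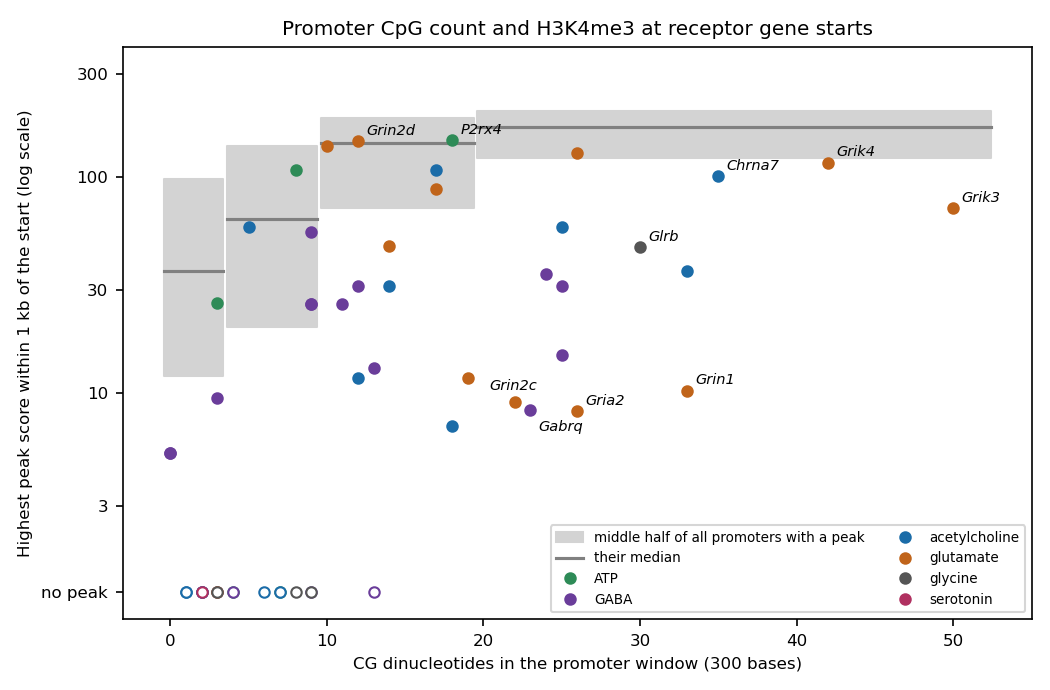
Highest peak score within 1 kb of the start (log scale) against the number of CG dinucleotides in the promoter window, for 54 windows of 47 receptor genes coloured by transmitter, with open circles at the bottom for windows without a peak. Grey boxes and lines give the middle 50% and the median of all marked protein-coding promoters in 4 classes of CG count; nearly all receptor points with at least 10 CG lie below the line of their class, and open circles lie at 13 CG or fewer.

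Of the 16 nicotinic acetylcholine receptor genes 10 had a peak (62.5%, exact interval 35.4 to 84.8%), against 67% of all genes, and 7 of them at an end. The 5 genes for subunits of ganglionic receptors were all marked at an end, where 61.4% of all genes were. Chrna3 and Chrnb4 encode the main pair of autonomic ganglia and Chrna5 an accessory subunit that joins them. Chrna5 had the widest peak of the class, 1350 bp scoring 58.6 (chromosome 9, 54981174 to 54982523), which began 294 bp inside its outer start and covered its inner start. Chrnb4 had a peak of 846 bp scoring 31.5 (55048238 to 55049083) over its start and a small one of 162 bp beside it. The mark at Chrna3 was split into 3 peaks of 204, 723 and 155 bp with scores of 9.32, 7.02 and 6.05, which gave 1607 bp when peaks closer than 1 kb were merged. All 3 scores at Chrna3 lay below those of the main peaks at its neighbours. Chrna7, whose subunit forms channels on its own, had the highest score of the ganglionic genes, 101, in a peak of 964 bp (chromosome 7, 63211584 to 63212547). That peak ran 942 bp into the gene and 21 bp before the start. Chrnb2, the partner of several alpha subunits, had a peak of 407 bp scoring 11.8 (chromosome 3, 89764272 to 89764678).

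The genes for muscle-type subunits carried few peaks of their own. Chrnb1, the beta subunit of the neuromuscular junction, had a peak of 764 bp over its start, scoring 108, the highest among nicotinic genes, which also lies within 1 kb of an end of Fgf11. The peak at Chrne, the adult epsilon subunit, was 535 bp wide, scoring 31.3, lay at its lower end and at ends of Mink1 and 4930544D05Rik, and was 3475 bp from the annotated start. Chrna1 had a peak of 211 bp inside the model, 12946 bp from its start, with a score of 24.5. Chrnd and Chrng had none, and the nearest peaks lay 3423 and 1384 bp away. Of the other 6 nicotinic genes, Chrna4, which forms the main brain receptor with Chrnb2, had a peak of 980 bp over its start (score 36.7). Chrna9 had one of 751 bp (41.9) inside its model, 10874 bp from its only listed start, which itself lies inside the model. Chrna2, Chrna6, Chrna10 and Chrnb3, subunits best known from brain and inner ear, had none, with the nearest peak 8613, 40802, 4058 and 6301 bp away.

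Neither 5-HT3 receptor gene had a peak, where 67% of all protein-coding genes did. Htr3a, the subunit that every 5-HT3 channel needs, lies on chromosome 9 from 48899213 to 48911152, and Htr3b, which changes its conductance, from 48935008 to 48964990. The nearest peak was 62125 bp from Htr3a and 19529 bp from Htr3b. The Htr3b promoter shown above was among the windows with the fewest CG.

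The P2X genes for ATP-gated channels were marked in 6 of 7 (85.7%, exact interval 42.1 to 99.6%), against 67% of all genes. The medians were 1622.5 bp in width and 82.2 in score. P2rx2 and P2rx3, the subunits best known from enteric and sensory neurons, had 1 peak each. At P2rx2 it was 1057 bp wide, scoring 57.01 (chromosome 5, 110342286 to 110343342). At P2rx3 it was 1755 bp wide, scoring 198 (chromosome 2, 85036584 to 85038338), the highest score of all 68 genes, and this peak also lies at an end of Ssrp1. P2rx4 had a peak of 1604 bp over its start, scoring 148 (chromosome 5, 122707033 to 122708636). Its neighbour P2rx7, known from immune and glial cells, had one of 2701 bp scoring 107 (122643784 to 122646484), which reached 2557 bp into the gene. P2rx6 had a peak of 1641 bp scoring 26.0, shared with an end of Lrrc74b, and P2rx5 one of 562 bp inside its model, scoring 27.3. P2rx1, the subunit of smooth muscle and platelets, had none, the nearest peak lying 3130 bp away. Without peaks at ends of other genes, P2rx3 and P2rx6 were no longer marked, so the highest score among P2X genes was that of P2rx4.

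Glutamate receptor genes held the widest peaks. Of 18 subunit genes 15 had a peak (83.3%, exact interval 58.6 to 96.4%), against 67% of all genes. Their median model of 298228 bp falls in the longest of the 5 length classes, where 89.2% of all genes had one. The medians were 1795 bp in width and 68.4 in score. Grid2ip had 4 peaks inside its model, the widest 1157 bp over an annotated start. Of the 10 widest-marked receptor genes 7 belong to this family.

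All 5 kainate receptor genes were marked at an end, where 61.4% of all genes were. In the longest length class, which holds these 5, the share at an end was 77.4% of all genes. Grik3 had a peak of 3451 bp scoring 72.1 (chromosome 4, 125489512 to 125492962), which ranked 517 in width among 14665 marked genes. Grik5 had one of 2502 bp over its start, scoring 139 (chromosome 7, 25070996 to 25073497). Another of 759 bp outside its upper end also lies at an end of Zfp574. Grik4 had 2 strong peaks. One of 1795 bp scoring 117 covered its start and one of 1502 bp scoring 88.3 lay 45837 bp from it (chromosome 9, 42897033 to 42898534). Grik2 had 6 peaks, more than any other receptor gene. Its start lay under one of 1732 bp scoring 130, and a wider one of 1864 bp scoring 107 lay 4882 bp from the start (chromosome 10, 49782009 to 49783872). Grik1 had the weakest mark of the 5, 1145 bp scoring 23.5.

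The AMPA receptor genes, which encode the channels of most fast glutamate synapses, divided in width. Gria3 had a peak of 2701 bp scoring 57.6 (chromosome X, 41400303 to 41403003) and Gria4 one of 2233 bp scoring 88.0 (chromosome 9, 4794310 to 4796542). Gria1 had 2 narrow peaks of 378 and 533 bp with scores of 12.7 and 13.9. Gria2, whose edited subunit sets calcium permeability, had 3 peaks of 195 to 315 bp with scores from 5.29 to 8.38, which spanned 2090 bp when merged. Grid1, of the delta class, had a peak of 1962 bp at its lower end, scoring 69.5 (chromosome 14, 34819196 to 34821157).

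NMDA receptor genes were marked in 4 of 7, with narrower peaks, where 67% of all genes were marked. Their median model of 39312 bp falls in a length class with 79.3% of all genes marked. Grin1, the subunit every NMDA receptor needs, had 412 bp scoring 10.3 over its start, and its highest-scored peak (568 bp, 46.5) lay inside the model 13781 bp from that start. Its widest, of 921 bp scoring 27.0, lay at the other end of the model, at an end of Lrrc26. Grin2d had a peak of 1182 bp scoring 147 over its start (chromosome 7, 45865836 to 45867017). A wider one of 1391 bp at its lower end also lies at an end of Grwd1. Grin2b had 404 bp scoring 8.38, and the widest of 3 peaks at Grin2c was 349 bp and also lies at an end of Fdxr. Grin2a, Grin3a and Grin3b had none, and the nearest peak lay 196786, 28656 and 5863 bp away. For Grin2a that was the greatest distance among the 23 genes without a peak.

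Of the 19 GABA receptor genes 12 had a peak (63.2%, exact interval 38.4 to 83.7%), all at an end, against 67% of all genes over the model. Their median model of 88575 bp falls in the longest of the 5 length classes. There 89.2% of all genes had a peak over the model and 77.4% at an end. The medians were 698.5 bp in width and 20.5 in score. Among the beta subunits, which form part of the GABA site, Gabrb1 had 1724 bp scoring 55.5 and Gabrb2 had 3 peaks of 356 to 542 bp. Among the alpha subunits, Gabra2 had 991 bp (score 15.1), Gabra4 750 bp (31.5) and Gabra3 202 bp (5.29), the lowest top score of any marked receptor gene. Gabra5 had a peak of 1877 bp (48.0), but this peak also lies at an end of another protein-coding gene, and Gabra5 had no other. Gabra6, best known from cerebellar granule cells, had none within 98695 bp. Of the gamma subunits, Gabrg3 had 647 bp (13.1) and Gabrg1 383 bp (9.48). Gabre had 1384 bp (35.7) and Gabrq 313 bp (8.38). No peak was called at Gabrd, a subunit of receptors outside synapses, at Gabrp or at the rho genes Gabrr1, Gabrr2 and Gabrr3, best known from the retina, and the nearest lay 9821 to 36756 bp away.

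Glycine receptor genes divided by subunit. Glrb, the beta subunit that anchors the receptor to gephyrin, had a peak of 938 bp scoring 47.5 over its start (chromosome 3, 80913023 to 80913960). None of the 4 alpha genes, whose subunits can form channels without beta, had one, where 67% of all protein-coding genes did. Glra1, Glra2 and Glra3 fall in the longest length class, with 89.2% of all genes marked, and Glra4 in the next, with 79.3%. The nearest peak lay 42876 bp from Glra1, 147977 bp from Glra2, 164153 bp from Glra3 and 11650 bp from Glra4. Of the windows matched, those of Glra2, Glra3 and Glra4 held 9, 8 and 3 CG and that of Glrb 30.

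Receptor genes less than 500 kb apart formed 12 clusters with 31 members. A peak lay over 20 of these 31 (64.5%) and over 25 of the 37 outside clusters (67.6%), against 67% of all genes. Their median models, 31033 bp in clusters and 42633 bp outside, fall in a length class where 79.3% of all genes had a peak. In 4 clusters, each a pair, no peak was called anywhere in the span: Chrnd with Chrng on chromosome 1, Gabrr2 with Gabrr1 on chromosome 4, Chrnb3 with Chrna6 on chromosome 8 and Htr3a with Htr3b on chromosome 9. The largest of these spans was 105877 bp. In contrast, the span of Chrna5, Chrna3 and Chrnb4 (68127 bp) held 6 peaks, 1 or more at each gene.

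GABA-A receptor genes form long clusters. On chromosome 5 (Gabrg1, Gabra2, Gabra4 and Gabrb1, 1398526 bp) all 4 genes were marked, with 4 peaks, and on chromosome X (Gabre, Gabra3 and Gabrq, 585682 bp) all 3 were, with 3 peaks. Every peak in both spans lay over a receptor gene. At Gabra4 and Gabrb1, whose models overlap at one end, 1 peak lay over both genes (chromosome 5, 71657574 to 71658323). The only listed start of Gabra5 on chromosome 7 lies inside the model, 80346 bp from the peak at its upper end. In the P2rx1 and P2rx5 span 6 of 7 peaks lay over neither receptor gene.

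At Gabrb1 the inner of 2 annotated starts had the larger peak. The outer start, shared with Gabra4, lay under 750 bp scoring 31.5, and the inner start under 1724 bp scoring 55.5 that also lies at an end of the noncoding gene Gm38562. The bases before both starts are shown because the larger peak lay at the start with fewer CG, 6 in 250 bases against 18.
Gabrb1 outer start, chr5:71657671-71657920, plus strand: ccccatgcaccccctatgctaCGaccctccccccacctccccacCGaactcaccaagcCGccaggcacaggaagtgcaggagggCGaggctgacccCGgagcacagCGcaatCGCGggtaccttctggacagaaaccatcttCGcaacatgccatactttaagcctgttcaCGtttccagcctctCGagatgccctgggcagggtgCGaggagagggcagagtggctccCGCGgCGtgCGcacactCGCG
Gabrb1 inner start, chr5:71699682-71699931, plus strand: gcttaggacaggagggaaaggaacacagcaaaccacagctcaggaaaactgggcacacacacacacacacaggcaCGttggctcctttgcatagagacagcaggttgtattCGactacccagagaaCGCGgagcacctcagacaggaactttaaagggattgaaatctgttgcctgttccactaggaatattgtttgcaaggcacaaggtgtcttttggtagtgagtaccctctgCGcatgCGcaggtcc

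**Figure D4:**
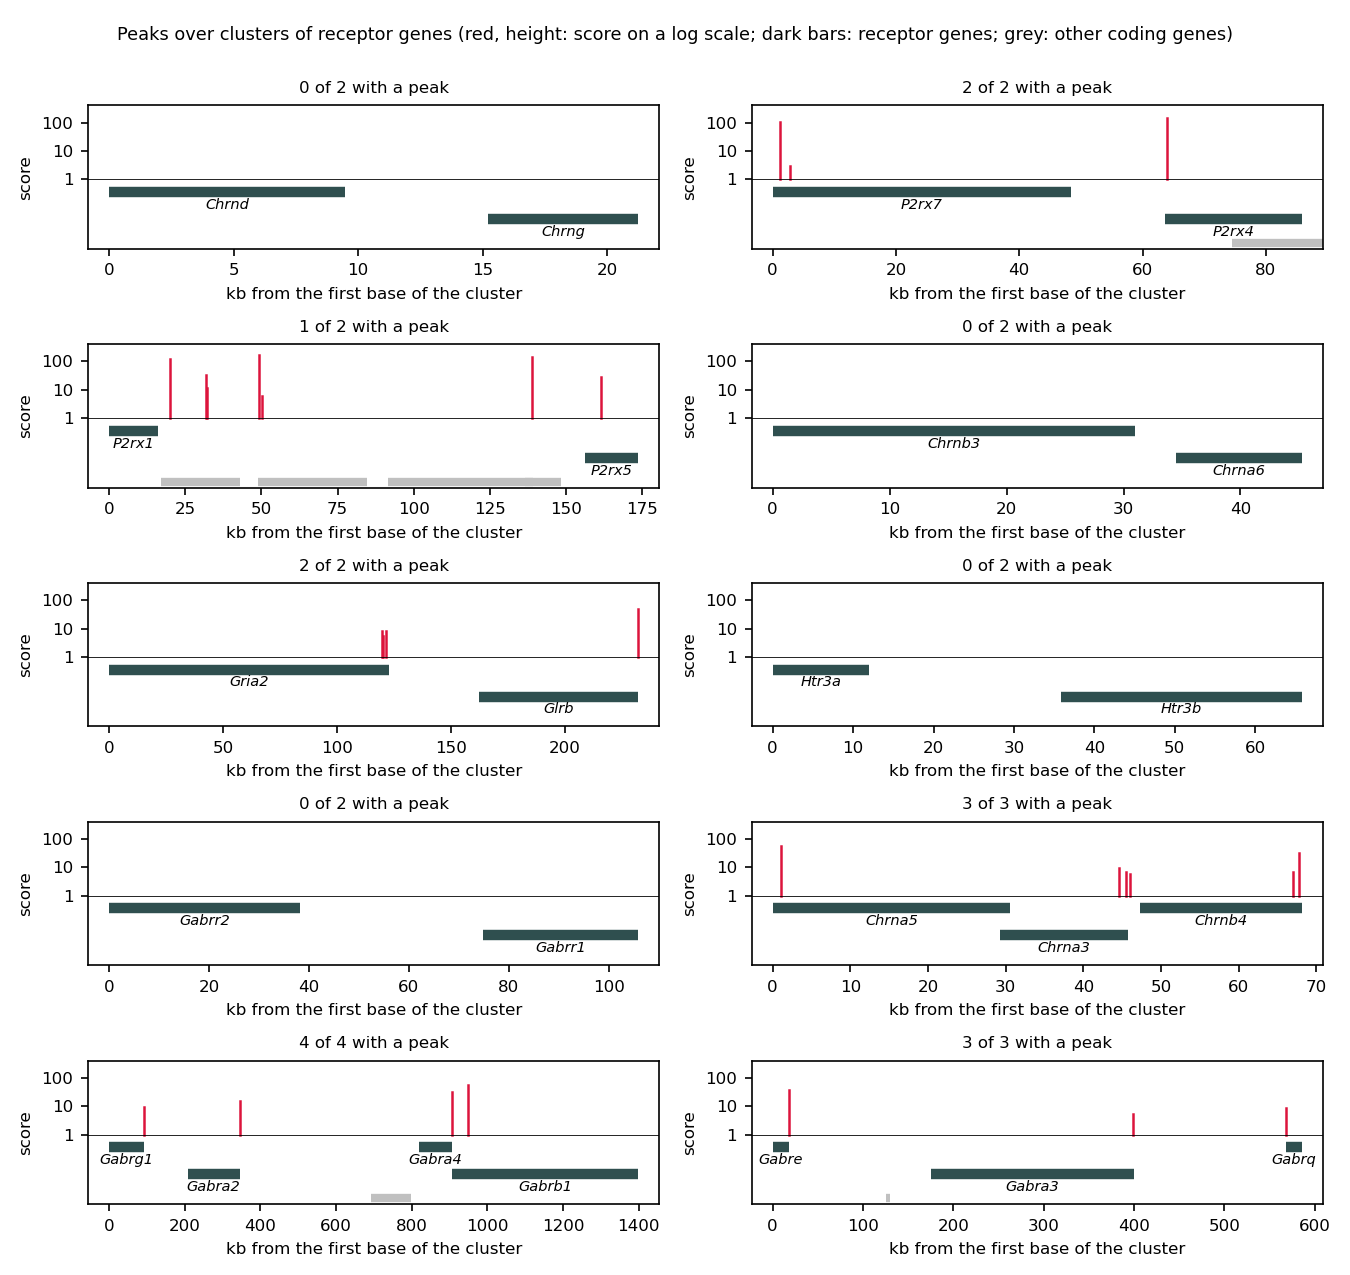
Peaks (red lines, height giving the score on a log scale) over 10 of the 12 clusters of receptor genes (dark bars, named) with other protein-coding genes in grey, by distance in kb from the first base of each cluster. The panels of Chrnd and Chrng, Gabrr2 and Gabrr1, Chrnb3 and Chrna6, and Htr3a and Htr3b hold no peak, and in the GABA-A clusters on chromosomes 5 and X peaks lie at or near the edges of the gene bars or, in Gabrb1, inside.

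Where a peak covered an annotated start of a receptor gene it mostly extended further into the gene than before it. This held for 21 of 26 genes (80.8%), against 82.9% of all genes, with medians of 341.5 bp before and 693.5 bp after the start, against 457 and 1019 bp. The exceptions were Chrna4, Chrnb1, Chrnb4, P2rx6 and Gria2. At Gabra3, Gabrg1, Gabrg3 and Gabrq the peak lay within 1 kb but its nearest edge was 8 to 783 bp from the start.

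**Figure D5:**
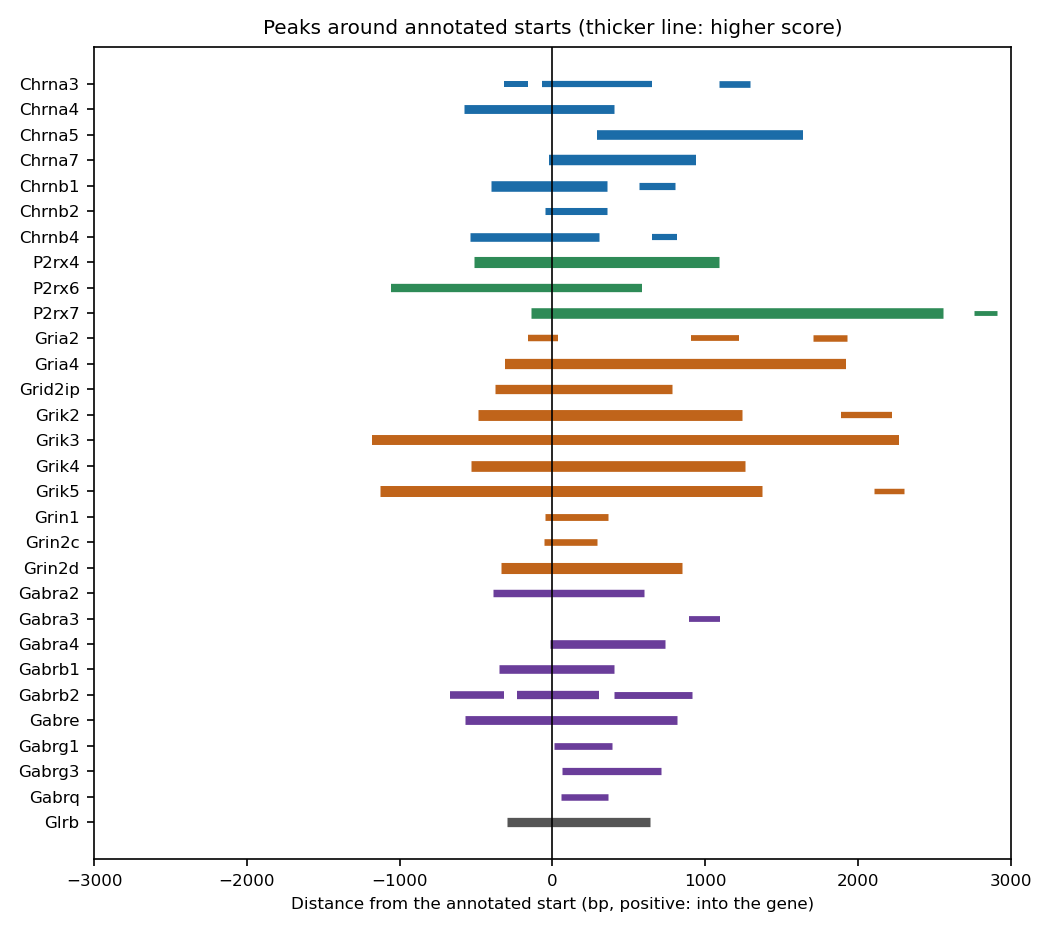
Peaks within 3 kb of an annotated start for the 30 receptor genes with a peak within 1 kb of one, by distance in bp from that start (positive values lie in the gene), coloured by transmitter and thicker with higher score. The lines that cross the start reach further to the right than to the left for most genes, furthest for P2rx7 (2557 bp) and Grik3 (2266 bp). At Gabra3, Gabrg1, Gabrg3, Gabrq and Chrna5 the line that does not cross it is the gene's only peak. Other lines that do not cross it are further peaks of the same gene.

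The 68 genes held 83 different peaks, 46 at an end of a model and 37 inside. Those at an end had medians of 761.5 bp and a score of 26.5, those inside of 315 bp and 8.38. Of the inside peaks 10 lay within 1 kb of an annotated start. Among the 9 inside peaks scored above the list's median, 4 lay further than 1 kb from any annotated start of their gene. These were the peaks of Grik2, Grik4, Grin1 and Chrna9 given above, and none of them lies at an annotated end of another gene. The starts used are not complete, and the only one listed for Chrna9 lies inside its model.

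Partner genes of the receptors, in 6 lists, had wider peaks than the receptors in 5 of the lists, by their medians. The exception was the list of AMPA auxiliary subunits, at 972 bp against 980 bp. That list, nicotinic assembly (1021 bp) and ATP release and breakdown (1395 bp) lay below the 1515 bp of all marked genes. Kainate and delta partners (1548 bp), glutamate scaffolds and the GABA and glycine clustering genes lay above it. The counts below stand beside 67% of all protein-coding genes with a peak, not weighted for length. All 8 genes that cluster or assemble GABA and glycine receptors had a peak, and the medians were 2182.5 bp in width and 183 in score. They include Gphn (2522 bp), which encodes the scaffold gephyrin that Glrb binds, Gabarap (2461 bp), Nlgn2 (2215 bp) and Clptm1 (2663 bp). All 17 glutamate receptor scaffolds were marked, with a median of 1664 bp, from Homer1 (3262 bp) to Grip2 (286 bp). Of 12 auxiliary AMPA subunits 11 were marked, led by Cacng4 (2476 bp), Cnih3 (2421 bp) and Cacng7 (2032 bp), and Cacng3 had none. The kainate auxiliary genes Neto1 (2000 bp) and Neto2 (1789 bp) and the synaptic organisers Cbln1 (888 bp) and Cbln3 (1307 bp) were marked, and Cbln2 and Cbln4 were not. Of 8 genes for nicotinic receptor assembly and its Ly6-type modulators 7 were marked, among them the chaperones Ric3 (1064 bp, score 67.5) and Tmem35a (779 bp, 20.9), Lypd6 (1635 bp) and Lynx1 (956 bp, 132). The exception was Rapsn, which clusters the muscle receptor. All 7 genes of ATP release and breakdown were marked, from Entpd2 (1835 bp) and Panx1 (1719 bp) to Slc17a9, the vesicular nucleotide transporter, with 163 bp and a score of 6.35.

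The metabotropic receptors of the same transmitters, G protein-coupled and slower, had a peak in 26 of 36 genes (72.2%, exact interval 54.8 to 85.8%), against 67% of all genes. The medians were 1051 bp in width and 18.1 in score. The widest were Chrm4 (2657 bp), P2ry1 (2571 bp), Chrm2 (2511 bp) and Gabbr1 (2440 bp). For potassium channel genes the values were 73 of 94 (77.7%), 1263 bp and 36.1. Median models of 33104.5 bp (metabotropic) and 32691.5 bp (potassium channel) fall in a length class where 79.3% of all genes had a peak. The median scores of both groups, like that of the ligand-gated receptors, lay below the 153 of all marked genes. The differences between these groups were not tested, since all come from 1 library.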

How the data were processed

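H3K4me3 chromatin immunoprecipitation and input libraries came from sorted NOS1+ small intestinal neurons, 1 of each. The deposited list gives each peak a score; per the file headers the peaks were called with MACS2 from a paired-end library. The submitters' processing notes list BWA, Picard, MACS2 and mm10, with neither role nor version. How the score is scaled, which threshold was set and how duplicates were handled is not stated in these sources. Counts were not analysed here, and depth is unknown.

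Gene models (GRCm38.p6) were widened by 1 kb and overlapped with peaks by at least 1 bp, in Python 3.11.15 with pandas 2.3.3 and numpy 2.4.6. Start sites and strand came from the RefSeq promoter windows, matched for 17492 genes. The table is not complete. Exact 95% Clopper-Pearson intervals (scipy 1.17.1) run over genes and cover no variation between animals or libraries. No test was made. Simulated peaks were used to test the counting.

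Some members are counted but not reported by name here. Full values were given for the widest, the highest-scored, the unmarked, the clustered, and the ganglionic nicotinic, serotonin and P2X genes, and for partners up to 4 per list by width. Grip2, Tmem35a, Lynx1 and Slc17a9 were named with their values known. The members and lists were chosen with earlier results of these data known. The CG counts, motifs and the view of inside peaks were added after the data were seen. Alternatives were other sets of peaks, margins, shared peaks, members and cluster distances.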

Additional observations from a re-analysis of the deposited data

How the results depend on the processing

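Limits on the score changed most values, in part because they leave fewer peaks. With the 50% of peaks with the highest scores, a peak lay over 36.8% of the receptor genes (57.8% of all genes) and at an end of 29.4%, with a median width of 1724 bp, now above that of all genes (1623 bp), and a median score of 68.4, and over 31.25% of acetylcholine, 57.9% of glutamate and 21.1% of GABA receptor genes. With the 25% with the highest scores these values were 4.41% (37.3% of all genes), 2.94%, 1604 bp and 148, and 28.6% of P2X, 5.26% of glutamate and 0% of acetylcholine, GABA and glycine receptor genes. The share at an end was 36.8% without a margin and 42.6% without peaks at ends of other protein-coding genes. Every other value of these results stayed inside the 95% interval of the main value under peaks at least 300 bp wide, peaks closer than 1 kb merged, margins of 500 bp, 2500 bp and none, peaks of other genes left out and the list without Grid2ip (65.7%). For medians that interval is the exact one over genes. There were 13 clusters with a distance of 200 kb and 13 with 1 Mb, against 12. No paired analysis was possible because there was 1 library of the mark. Depth is unknown, so it cannot be said which unmarked genes deeper sequencing would reach.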

Other observations

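Short sequence motifs were searched in the 54 promoter windows of receptor genes, on both strands and with exact letters, and set beside 21263 windows of all protein-coding genes. The GC box GGGCGG was found in 26 of 54 (48.1%, against 46.2%) and the TATA box TATAAA in 7 (13.0%, against 12.6%). Both parts of the binding sequence of REST, a repressor of neuronal genes, were searched apart: CAGCACC was found in 4 windows (7.41%, against 7.24%), those of Chrna9, Chrna10, Gabrq and Htr3b, and GGACAGC in 4 (7.41%, against 6.88%), those of Glra2, Glrb, Gria2 and P2rx4. The cAMP response element TGACGTCA was found in 0 of 54, where 2.23% of all windows held it. These are matches of letters in a window of 300 bases, without a test.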
